A study of Mus musculus with 6 samples.

Results

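Oxidative phosphorylation genes encode the protein complexes of the inner mitochondrial membrane that pass electrons to oxygen and make ATP. In the caudal artery, the main artery of the tail, 92 such genes were followed in mice with and without the receptor gene Notch3. They were taken by name from the 18193 genes that the array names through a probe set with a single gene symbol: those whose symbol starts with Nduf, Uqcr, Sdh or Atp5, or with Cox followed by 4, 5, 6, 7 or 8, except Ndufa4l2 and Cox7a1. Each gene was represented by its brightest probe set, the group of short probes that reports a transcript, by its mean over all 6 arrays. That mean includes the Notch3-/- pools: chosen by the Notch3+/+ pools alone, 1 of the 92 genes, Ndufb6, would have another probe set. By function, 34 encode subunits of complex I, 4 of complex II, 8 of complex III, 16 of complex IV and 17 of complex V, and 13 encode assembly factors. A further 10 probe sets carry such a symbol together with other genes and were not used.

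The study set 3 pools of arteries from Notch3+/+ mice against 3 pools from Notch3-/- mice, all 4 weeks old (P28), on MOE430 2.0 Affymetrix chips. Notch3+/+ replicates 1, 2 and 3 pooled 4, 3 and 3 mice, and each Notch3-/- replicate pooled 4. The labels give neither strain, sex nor the design of the Notch3 allele, and no other allele or treatment. The arteries were whole, so a difference can come from fewer cells of a type or from less RNA per cell, and these cannot be told apart.

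Complex I (NADH dehydrogenase) and complex II (succinate dehydrogenase) feed electrons into the chain, complex III hands them to cytochrome c, and complex IV (cytochrome c oxidase) to oxygen. The proton gradient built on the way drives complex V, the ATP synthase. Arterial smooth muscle uses this ATP for contraction and for ion pumping, beside a high rate of glycolysis, and the nuclear genes of the chain are known targets of nuclear respiratory factor 1, of the ETS family factor GABP and of YY1.

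To show the motif letters in place, 3 promoters are printed, the 250 bases before the start site as given by RefSeq on GRCm38.p6. Capitals mark the letters GCGCATGCG (the core bound by nuclear respiratory factor 1) and CCGGAAG (bound by GABP and other ETS factors) on either strand. Ndufb6 is shown because its probe set had the smallest p of the 92 genes. Cox6a1 and Uqcr11 were picked because their windows held both motifs and overlapped no other gene, so they are not typical.

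Ndufb6 (chr4:40279422-40279671, minus strand): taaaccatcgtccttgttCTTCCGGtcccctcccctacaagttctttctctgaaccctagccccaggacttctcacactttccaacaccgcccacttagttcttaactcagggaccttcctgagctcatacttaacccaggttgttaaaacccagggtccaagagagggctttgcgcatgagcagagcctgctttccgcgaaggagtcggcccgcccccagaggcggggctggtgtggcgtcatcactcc
Cox6a1 (chr5:115348959-115349208, minus strand): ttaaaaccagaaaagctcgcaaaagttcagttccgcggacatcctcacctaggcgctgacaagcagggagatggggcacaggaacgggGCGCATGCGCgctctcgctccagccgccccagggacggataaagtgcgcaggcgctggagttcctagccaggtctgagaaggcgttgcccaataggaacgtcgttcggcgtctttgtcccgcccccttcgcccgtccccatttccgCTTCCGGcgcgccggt
Uqcr11 (chr10:80406822-80407071, minus strand): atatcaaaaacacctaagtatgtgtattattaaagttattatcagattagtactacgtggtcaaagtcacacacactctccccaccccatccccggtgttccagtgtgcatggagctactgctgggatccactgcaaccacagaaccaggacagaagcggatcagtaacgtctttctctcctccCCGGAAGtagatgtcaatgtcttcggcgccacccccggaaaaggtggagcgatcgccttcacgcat

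The ETS letters of Ndufb6 and Cox6a1 appear as the reverse complement, CTTCCGG. In Uqcr11 the GCGCATGCG letters do not lie whole within the stretch printed, since the search also took the 50 bases after the start. Of the 92 genes, 77 had such a 300-base window, matched by gene number. GCGCATGCG stood in 9 of these (11.7%), against 3.46% of 10215 windows of genes tested on the array and 1.81% of 27025 windows in all. CCGGAAG stood in 21 (27.3%, against 17.2% and 9.11%), and AAGATGGC, bound by YY1, in 9 (11.7%, against 4.59% and 2.87%). Any of these 3 stood in 34 of the 77 windows, so most held none. TCAAGGTCA, bound by oestrogen-related receptors, stood in 2 (2.60%, against 0.284% and 0.407%). GTGGGAA, the core bound by RBPJ, the DNA-binding partner of Notch, stood in 4 (5.19%, against 6.25% and 6.39%). The ETS and YY1 letters can overlap by their shared AAG, and a match is a description of the sequence only.

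The values are deposited log2 expression values, so a difference of 1 is a 2-fold change. Notch3 read 9.94, 9.95 and 10.09 in the Notch3+/+ pools and 6.51, 6.44 and 5.87 in the Notch3-/- pools. Whether its probe set lies inside the deleted part is not given in the labels. All 10 smooth muscle markers listed were measured above the level filter (a mean over the 6 arrays of 3.83), with Acta2, smooth muscle actin, between 13.18 and 13.25 in the 6 pools. Des and others of the 10 moved between genotypes, as given with the other cell markers below. Over all genes, Notch3-/- replicate 2 stood apart, at 39.5 on a first principal component on which the other arrays ran from -17.1 to 5.85. Many of the differences and medians that leaving it out moves by over 1.5 times are given without it too. Others are not, so a value given alone can still depend on that pool.

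None of the oxidative phosphorylation genes differed between genotypes past the threshold, an adjusted p of 0.05 from limma over 27027 probe sets. Of the 92 genes, 90 lay above the level filter and were tested; Ndufb4 and Cox7b2 lay below it. Of the 90, 0 were called, against 0.322% of 12732 genes tested (0.126% lower and 0.196% higher). Of their 164 tested probe sets 0 passed, against 0.252% of all. In a list of this size, 0 calls are near those shares and say little about these genes. An unadjusted p under 0.05 was found for 3 of the 90 (3.33%, against 11.9% of all genes). Of these Atp5a1 was lower (4.81% of all genes) and Ndufb6 and Cox5a were higher (7.1% of all genes). With limma's array weights Ndufb6 alone passed, on the probe set described with complex I.

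The differences were small as well as uncalled. Notch3-/- minus Notch3+/+ ran from -0.36 (Uqcrc1) to 0.48 (Ndufb6), with a median of -0.04 beside 0.00 over all genes tested. The 95% confidence interval lay inside a 1.5-fold change in either direction for 85 of 90 genes (94.4%, against 88.3% of all genes). The 5 others were Ndufb6, Cox5a, Uqcrc1, Cox8a and Ndufa4, the last named after its values were seen. For the other 85 genes a change of 1.5-fold lay outside the interval of the probe set used. Other tested probe sets of some of them had intervals that passed it, such as 0.15 to 0.84 for Atp5o and -0.61 to 0.69 for Ndufab1.

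**Figure D1:**
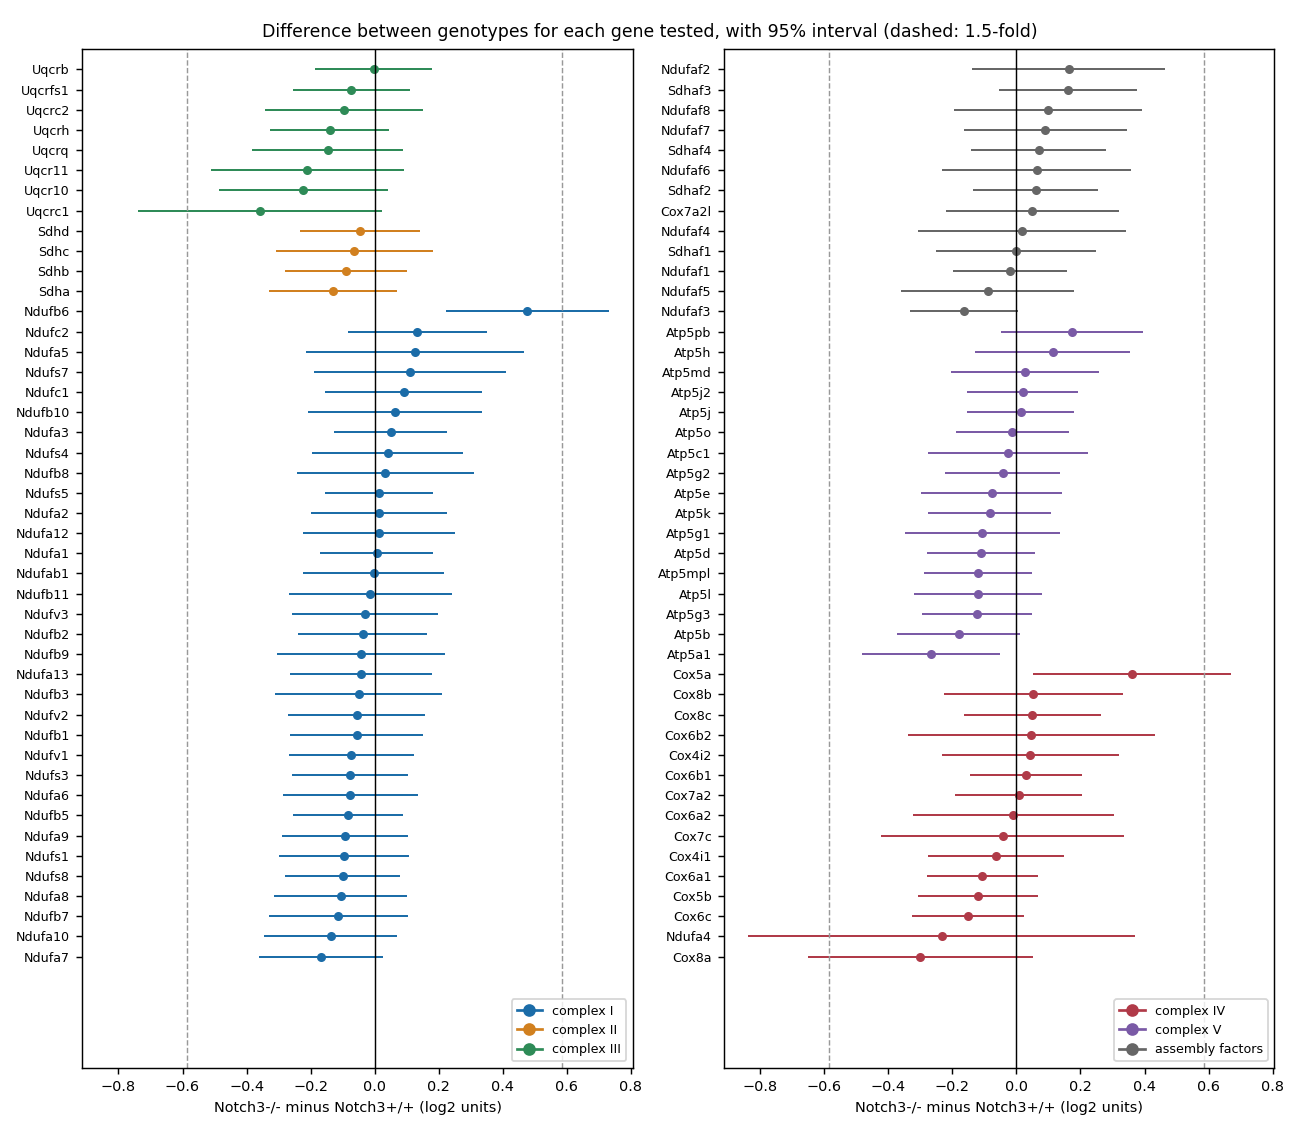
Difference between genotypes (Notch3-/- minus Notch3+/+, x axis, log2 units) for each of the 90 genes tested (y axis), with the 95% interval from limma; colours mark complexes and dashed lines a 1.5-fold change. Most points lie a little left of 0, and the 5 intervals that cross a dashed line belong to Ndufb6, Cox5a, Uqcrc1, Cox8a and Ndufa4.

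Most of the genes lay slightly lower in the Notch3-/- pools. The mean was lower for 55 of 90 (61.1%, against 50.5% of all genes). In 14 (15.6%) every Notch3-/- pool was below every Notch3+/+ pool, against 7.88% of all genes. In 3 (3.33%) every Notch3-/- pool was above, against 9.46%. Without Notch3-/- replicate 2 the mean was lower for 68 of 90, the groups did not overlap in 24 lower and 5 higher genes (all genes 11.6% and 13.7%), and the median was -0.06. These counts describe the list and were not tested.

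By pool, the medians of the genotypes overlapped. The median deviation from each gene's 6-pool mean was -0.02, 0.04 and 0.05 in Notch3+/+ replicates 1 to 3 and -0.09, 0.02 and 0.01 in Notch3-/- replicates 1 to 3. Notch3-/- replicate 1 was thus the low pool, and held the lowest value of 45 of the 90 genes. Notch3-/- replicate 2 departed in both directions: it held the lowest value of 22 genes and the highest of 35, and its deviations had an SD of 0.21 over the genes, against 0.08 to 0.10 in the other pools. Over all genes tested that SD was 0.22 in replicate 2 and 0.14 to 0.18 in the others.

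**Figure D2:**
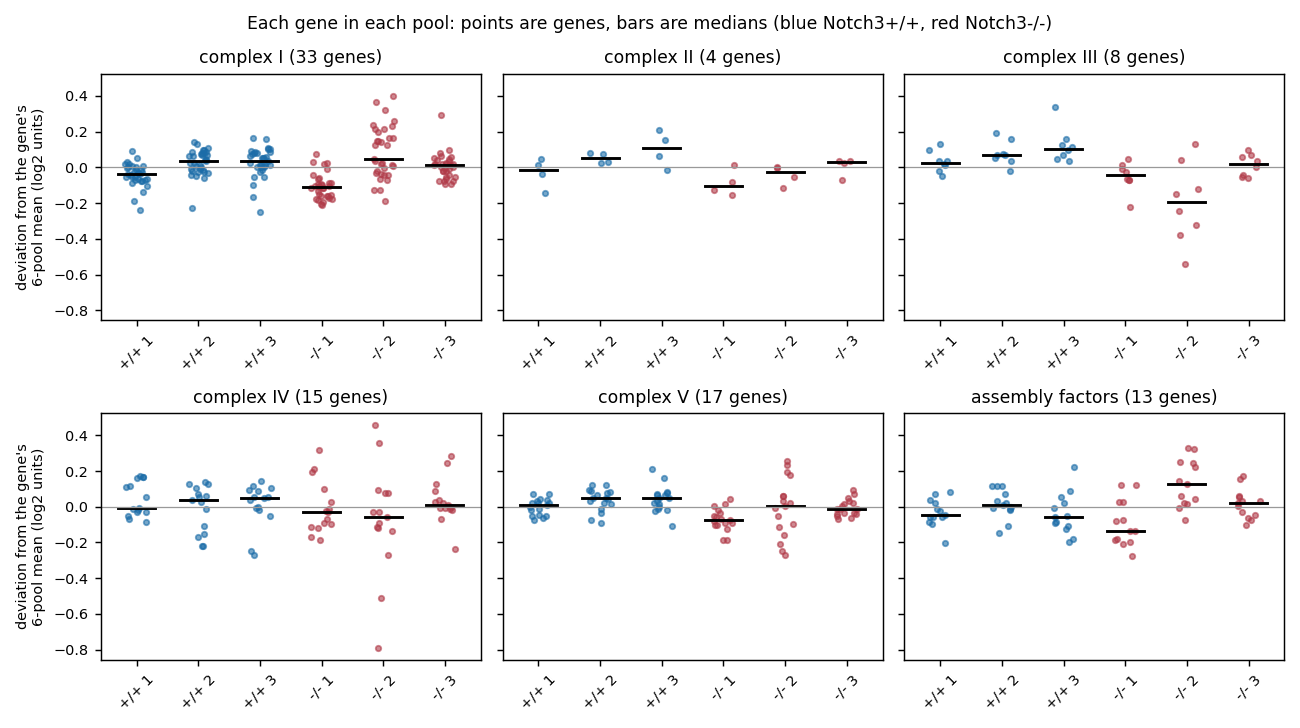
Deviation of each gene from its own 6-pool mean (y axis, log2 units) in each pool (x axis), by complex; points are genes, black bars are medians, blue is Notch3+/+ and red is Notch3-/-. The points of Notch3-/- replicate 2 spread widest in complexes I, III, IV and V, and those of Notch3-/- replicate 1 lie below 0 in most genes of complexes I and V.

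Complex I takes electrons from NADH. Of its 34 genes 33 were tested, 20 were lower and 13 higher, with a median of -0.04, which was 0.02 without Notch3-/- replicate 1 and -0.075 without replicate 2. The core subunits, which carry the flavin and the iron-sulphur clusters, differed by -0.10 to 0.11 on the probe sets used. The upper end was that of Ndufs7, which differed by -0.02 without Notch3-/- replicate 2 and by -0.25 on its other tested probe set. Ndufv1, which binds NADH and the flavin, read 9.19, 9.26 and 9.31 in Notch3+/+ and 9.11, 9.15 and 9.28 in Notch3-/- pools. The pools overlapped, and the difference was -0.07 (interval -0.27 to 0.12). Ndufs1, the subunit with several iron-sulphur clusters, also overlapped, with a difference of -0.10 (interval -0.30 to 0.10).

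Ndufb6, an accessory subunit of the membrane arm, had the largest difference of the 90 genes on the probe set used, but that probe set is the brighter of its 2 only through the Notch3-/- pools. In the Notch3+/+ pools the other was brighter, with a mean of 9.19 against 9.0, so the choice favoured the difference. The probe set used read between 8.99 and 9.01 in the 3 Notch3+/+ pools and 9.26, 9.64 and 9.53 in the Notch3-/- pools, so every Notch3-/- pool was higher. The difference of 0.48 (SE 0.11, 1.39-fold) had an unadjusted p of 0.0025 and an adjusted p of 0.193 from limma, with adjusted p from 0.0177 with array weights to 0.573 without Notch3+/+ replicate 2 over the settings tried on that probe set. Without Notch3-/- replicate 2 the difference was 0.40 (adjusted p = 0.309). The gene's other probe set read 9.23, 9.19 and 9.14 against 9.10, 9.12 and 9.23, a difference of -0.04 (adjusted p = 0.877). The first probe set minus the second was between -0.23 and -0.15 in the Notch3+/+ pools and between 0.16 and 0.52 in the Notch3-/- pools. The 2 probe sets thus changed unequally, and with both averaged the difference was 0.22.

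Among the other accessory subunits, Ndufa7 had the smallest p. It read 9.85, 9.93 and 9.93 in Notch3+/+ and 9.78, 9.63 and 9.80 in Notch3-/- pools, a difference of -0.17 (SE 0.08, adjusted p = 0.496), without overlap. All 5 of its probe sets were lower, by -0.25 to -0.15, and 0 passed (limma). Ndufa7 lies on chromosome 17, as Notch3 does, and is 1 of 3 of the 92 genes within 20 Mb of it on RefSeq's GRCm38.p6. The 2 others, Ndufv3 (-0.03) and Ndufb10 (0.06), named for their position, overlapped between genotypes. Ndufa10 (-0.14) and Ndufc2 (0.13) completed the 4 smallest p of complex I, and its brightest probe sets were those of Ndufa1 (0.01) and Ndufa13 (-0.04), the latter also known as GRIM-19. With Notch3-/- replicate 2 left out, Ndufc2 differed by 0.08, Ndufa13 by -0.12, Ndufa1 by -0.01, Ndufv3 by -0.11 and Ndufb10 by -0.04.

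Complex II oxidises succinate and also belongs to the citric acid cycle. All 4 of its genes were tested, all 4 had a lower mean on the probe set used, and the pools of each overlapped or touched. Other tested probe sets reached 0.32 for Sdhd and 0.12 for Sdha, both higher, while the 2 of Sdhc were both lower. Sdha, the flavoprotein that binds succinate, read 9.57, 9.69 and 9.76 in Notch3+/+ and 9.48, 9.61 and 9.54 in Notch3-/- pools. Its difference of -0.13 (SE 0.08) had an adjusted p of 0.594. Sdhb, the iron-sulphur subunit, differed by -0.09, and the membrane anchors Sdhc and Sdhd by -0.06 and -0.05, the latter 0.00 without Notch3-/- replicate 2.

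Complex III had the lowest median, -0.14, and all 8 of its genes had a lower mean on the probe set used. The median was -0.09 without Notch3-/- replicate 2. By pool it was 0.03, 0.07 and 0.10 in Notch3+/+ and -0.04, -0.20 and 0.02 in Notch3-/- replicates 1 to 3, so every Notch3-/- median was lower, that of replicate 3 only narrowly. Uqcrc1, a core protein facing the matrix, read 8.93, 8.87 and 9.14 against 8.85, 8.26 and 8.76. Every Notch3-/- pool was lower, and replicate 2 lay furthest. The difference was -0.36 (SE 0.16, 1.28-fold, adjusted p = 0.470), and -0.175 without replicate 2.

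Among the small subunits of complex III, Uqcr10 read 9.17, 9.31 and 9.31 against 9.08, 8.83 and 9.21, and Uqcr11 read 8.89, 9.07 and 8.99 against 8.87, 8.50 and 8.95. In both, Notch3-/- replicate 2 was the lowest pool and replicate 3 lay inside the Notch3+/+ range, and without replicate 2 the differences went from -0.22 to -0.12 and from -0.21 to -0.07. Uqcrh, the hinge protein that holds cytochrome c1, was lower in every Notch3-/- pool (-0.14). Uqcrfs1, the Rieske iron-sulphur protein, read 8.92 in all 3 Notch3+/+ pools and 8.86, 8.76 and 8.92 in Notch3-/- pools. Uqcrb, the brightest of the group, differed by -0.0033, with an interval of -0.18 to 0.18. On their other tested probe sets Uqcrb differed by 0.26 and Uqcrc2, the second core protein, named after its values were seen, by 0.24, both higher. Without Notch3-/- replicate 2 these were 0.16 and 0.015, and Uqcrfs1 differed by -0.03.

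Complex IV reduces oxygen to water, and several of its subunits have a common form and a form restricted to some tissues. Of 16 genes 15 were tested, 8 were lower and 7 higher, with a median of -0.01. Ndufa4, long counted with complex I and now with complex IV, is placed here. Cox4i1, the common regulatory subunit, read 11.22, 11.30 and 11.29 in Notch3+/+ and 11.07, 11.33 and 11.22 in Notch3-/- pools, with overlap. Cox4i2, its partner known from lung and from pericytes, read 4.55, 4.27 and 4.43 against 4.65, 4.30 and 4.43, close to the array median. Neither differed beyond its spread, with intervals of -0.27 to 0.15 and -0.23 to 0.32.

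The other tissue forms overlapped too. Cox6a2, the heart and skeletal muscle form, read 6.06, 6.03 and 5.63 against 5.88, 5.78 and 6.03. Cox8b, found in muscle and brown fat, read 4.84, 4.92 and 4.84 against 4.78, 4.80 and 5.18, its highest value in Notch3-/- replicate 3, the pool with the highest skeletal muscle median. The testis forms Cox6b2 and Cox8c differed by 0.05 each. Their common partners Cox6a1 and Cox6b1 differed by -0.11 and 0.03. Leaving out Notch3-/- replicate 2, Cox4i1 differed by -0.125, Cox4i2 by 0.12, Cox6a2 by 0.05, Cox6b2 by 0.19, Cox8b by 0.11, Cox8c by 0.08 and Cox6b1 by -0.0017. Levels of different probe sets are not comparable, so no ratio of one form to the other was taken.

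Cox5a, a common subunit, had the highest difference after Ndufb6. Its brightest probe set read 9.65, 9.50 and 9.47 in Notch3+/+ and 9.71, 10.18 and 9.81 in Notch3-/- pools, all of the latter higher. The difference was 0.36 (SE 0.13, 1.28-fold, adjusted p = 0.380), and 0.22 without Notch3-/- replicate 2. A second probe set gave 0.35, while the third read 9.24, 9.20 and 9.16 against 9.17, 9.17 and 9.35, a difference of 0.03. Cox8a was lower in every Notch3-/- pool, at 9.48, 8.94 and 9.49 against 9.62, 9.59 and 9.60. Its difference of -0.30 (SE 0.15) became -0.12 without replicate 2, and that of its second tested probe set went from -0.32 to -0.14.

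Cox6c was also lower in every Notch3-/- pool on its brightest probe set, at 11.17, 11.15 and 11.25 against 11.32, 11.32 and 11.38. Its other probe set differed by 0.29 in the opposite direction. The widest departure of a single pool was that of Ndufa4, at 8.54 in Notch3-/- replicate 2 and between 9.39 and 9.58 elsewhere. Cox5b, whose probe set is among the brightest, differed by -0.12.

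Complex V has an F1 part, made of the catalytic head and a central stalk that turns in it. It also has a ring of c subunits in the membrane and an outer stalk that holds the head still. All 17 of its genes were tested, 12 were lower and 5 higher, with a median of -0.08, with a range of -0.10 to -0.045 over the settings tried. All 5 subunits of the F1 part, head and central stalk together, were lower, with a median of -0.11. Without Notch3-/- replicate 2, 4 were lower and 1 higher, with a median of -0.12. Atp5a1, the alpha subunit, read 10.79, 10.84 and 10.93 in Notch3+/+ and 10.63, 10.45 and 10.68 in Notch3-/- pools, without overlap. The difference was -0.27 (SE 0.09, 1.20-fold, adjusted p = 0.353), and -0.20 without replicate 2. Its second probe set gave -0.04. The third, a dim one, read 6.14 in Notch3-/- replicate 2 and 4.21 to 4.73 in the other pools. Atp5b, the catalytic beta subunit, read 11.12, 11.19 and 11.26 against 11.00, 10.94 and 11.09, without overlap, and its difference was -0.18 (SE 0.08, adjusted p = 0.468).

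In the rest of complex V, Atp5g3, a gene for the c subunit, differed by -0.12 and Atp5mpl, a small membrane subunit, by -0.12, each lower in every Notch3-/- pool. The 4 subunits of the outer stalk had a median of 0.06. Atp5pb, the b subunit, read 10.44, 10.44 and 10.41 against 10.45, 10.75 and 10.61. Every Notch3-/- pool was higher (0.17, adjusted p = 0.531 from limma). Without Notch3-/- replicate 2 the outer stalk median was 0.01 and Atp5pb differed by 0.10. Its second probe set differed by 0.00.

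The assembly factors, which build the complexes without staying in them, had a median of 0.06, and of -0.01 without Notch3-/- replicate 2. Of 13, 3 were lower and 9 higher. Ndufaf3, a complex I factor, read 7.01, 7.09 and 7.06 against 6.90, 6.90 and 6.87, lower in every Notch3-/- pool (-0.16, SE 0.07, adjusted p = 0.451). Ndufaf2 (0.16) and Sdhaf3 (0.16) overlapped, as did Ndufaf7 (0.09), Ndufaf8 (0.10) and Cox7a2l (0.05), a factor that links complexes III and IV. Without Notch3-/- replicate 2, Ndufaf2 differed by 0.04, Ndufaf7 by -0.01, Ndufaf8 by -0.04 and Cox7a2l by -0.05.

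Probe sets of the same gene often disagreed. Of 48 genes with more than 1 tested probe set, 29 had differences of both signs. The widest ranges were those of Atp5a1, Ndufb6 and Atp5o. Atp5o, which encodes the stalk protein OSCP and was chosen after its values were seen, differed by -0.01 on its brightest probe set and by 0.50 on the other, which read 7.22, 7.20 and 7.01 against 7.37, 7.95 and 7.60. Of the probe sets that stand for the 92 genes, 28 carry the suffix _a (several transcripts of a gene), 13 _s (probes shared by several transcripts) and 8 _x (some probes match other sequences). Pseudogene copies of these genes are common, so readings of the last 2 kinds are uncertain.

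**Figure D3:**
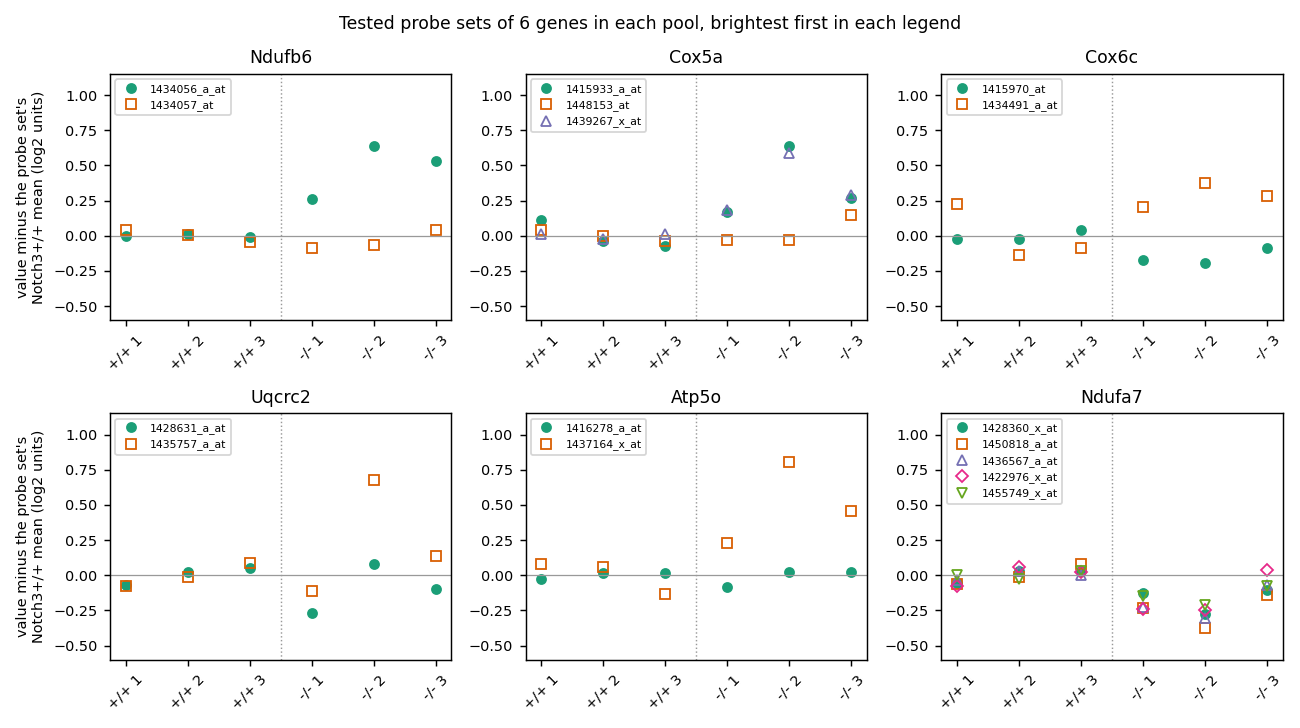
Tested probe sets of Ndufb6, Cox5a, Cox6c, Uqcrc2, Atp5o and Ndufa7 in each pool (x axis), as the value minus that probe set's Notch3+/+ mean (y axis, log2 units); each symbol is 1 probe set, and the dotted line separates Notch3+/+ from Notch3-/- pools. The 5 probe sets of Ndufa7 lie close to each other in every pool, whereas in Notch3-/- replicate 2 the probe sets of each other gene stand apart.

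Other mitochondrial genes outside the name rule had 0 calls too. Over all genes tested in limma 0.322% were called and 11.9% had an unadjusted p under 0.05. In lists of 7 to 28 genes, 0 calls are near that share and say little. Of 16 citric acid cycle genes 0 passed in limma and 0 had an unadjusted p under 0.05, with a median of 0.02, and Idh2 (-0.15) and Ogdh (-0.12) had the smallest p. Of 28 further assembly factors 0 passed and 1 had an unadjusted p under 0.05 (median 0.00): Coa5 (0.24), followed by Cox11 (0.18). Of 7 electron carrier genes 0 passed and 0 had an unadjusted p under 0.05 (median 0.05), with cytochrome c, Cycs, at 0.23 and Etfb at -0.16. Of 7 carrier and porin genes of the mitochondrial membranes 0 passed and 2 had an unadjusted p under 0.05, the uncoupling protein gene Ucp3 (-0.39) and the outer membrane channel gene Vdac3 (0.26). Leaving out Notch3-/- replicate 2 moved the citric acid cycle median to -0.03 and the electron carrier median to -0.04. It moved Cycs to 0.06, Idh2 to -0.09, Ogdh to -0.05, Cox11 to 0.105 and Vdac3 to 0.17.

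The regulators of mitochondrial biogenesis gave no call either, which in a list of 13 says little. Of 13 tested 0 passed in limma (0.322% of all genes) and 3 had an unadjusted p under 0.05 (23.1%, against 11.9% of all genes), with a median of -0.04. Yy1 read 8.38, 8.20 and 8.28 in Notch3+/+ and 8.59, 8.60 and 8.44 in Notch3-/- pools, every one higher, a difference of 0.26 with an adjusted p of 0.353. Twnk, the mitochondrial DNA helicase gene, differed by -0.20, Nrf1 by 0.09, Tfam, the mitochondrial DNA packaging factor, by 0.13 and Esrra by -0.10. Tfam differed by 0.04 and Nrf1 by 0.05 without Notch3-/- replicate 2. Ppargc1a, the coactivator that drives mitochondrial biogenesis, lay below the level filter at 2.61 to 2.95.

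Markers of neighbouring mitochondria-rich tissue were read beside these values. Of 21 skeletal muscle markers 19 were tested, 17 had a lower mean and 0 passed (0.322% of all genes). Their median was -0.27, and -0.055 without Notch3-/- replicate 2. Their median deviation was 0.21, 0.27 and -0.09 in Notch3+/+ and -0.28, -0.57 and 0.45 in Notch3-/- replicates 1 to 3. The summed signal of the list on the linear scale spanned 5494 to 6293 (Notch3+/+) and 5090 to 6308 (Notch3-/-), and Myh4 and Neb lay below the filter. Car3, which fat also expresses, made up most of each sum and was highest in Notch3-/- replicate 2. Without it the sums were 2391, 2727 and 2002 in Notch3+/+ and 1740, 1384 and 3026 in Notch3-/- replicates 1 to 3. The complex III median was lowest in Notch3-/- replicate 2 (-0.195), the pool with the lowest muscle median. It was highest in Notch3+/+ replicate 3 (0.105), where the muscle median was -0.09, and was 0.02 in Notch3-/- replicate 3, where the muscle median was highest. The median of all oxidative phosphorylation genes was 0.02 and 0.01 in Notch3-/- replicates 2 and 3. A link between the muscle signal and these values was not tested. Of 9 brown fat markers measured, 3 were tested, each with an unadjusted p under 0.05 in limma (11.9% of all genes) and 0 called. These were Dio2 (0.89, every Notch3-/- pool higher), Cidea (-0.23, every one lower) and Fabp3 (-0.27). Ucp1 lay below the filter at 2.74 to 3.06. The summed brown fat signal was 135 to 152 (Notch3+/+) and 138 to 175 (Notch3-/-).

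Macrophage and leukocyte markers had a higher mean in all 12 genes tested, with a median of 0.51 and 0 called (0.322% of all genes). An unadjusted p under 0.05 in limma was found for 7 (58.3%, against 11.9% of all genes). Their summed signal was 1474 to 2367 (Notch3+/+) and 2383 to 3030 (Notch3-/-). The 10 endothelial markers had a median of -0.25, and 0 were called (0.322% of all genes). Of these, 4 had an unadjusted p under 0.05 in limma (40%, against 11.9% of all genes). Every Notch3-/- pool was lower in 4 (40%, against 7.88%) and higher in 1 (10%, against 9.46%). Their summed signal spanned 5471 to 5886 (Notch3+/+) and 4593 to 5256 (Notch3-/-). Of the 10 smooth muscle markers 5 had a lower and 5 a higher mean. In limma 1 was called, Des (2.01, adjusted p = 0.0033), against 0.322% of all genes. Cnn1 (0.51) and Actg2 (0.66) were higher in every Notch3-/- pool, and Smtn (-0.58) and Myocd (-0.39) lower in every one. The part of these shifts in the values of the oxidative phosphorylation genes was not tested. The pericyte gene Ndufa4l2, a relative of Ndufa4 left out by the name rule, read 8.45, 8.56 and 8.53 against 8.02, 7.56 and 8.22, lower in every Notch3-/- pool (-0.58, adjusted p = 0.262). It does not stand for its cell type: of 9 pericyte markers, Ndufa4l2 among them, 5 had a lower and 4 a higher mean, and 0 were called. Pdgfrb (0.42), Abcc9 (0.44), Kcnj8 (0.35) and Anpep (0.15) were higher in every Notch3-/- pool. Of the other lower markers, Rgs5 (-0.07) was lower in every Notch3-/- pool. Cspg4 (-0.42), Vtn (-0.25) and Higd1b (-0.14) overlapped between genotypes. Cox7a1, the muscle form also left out, differed by -0.13 with overlap, and by -0.205 without Notch3-/- replicate 2.

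**Figure D4:**
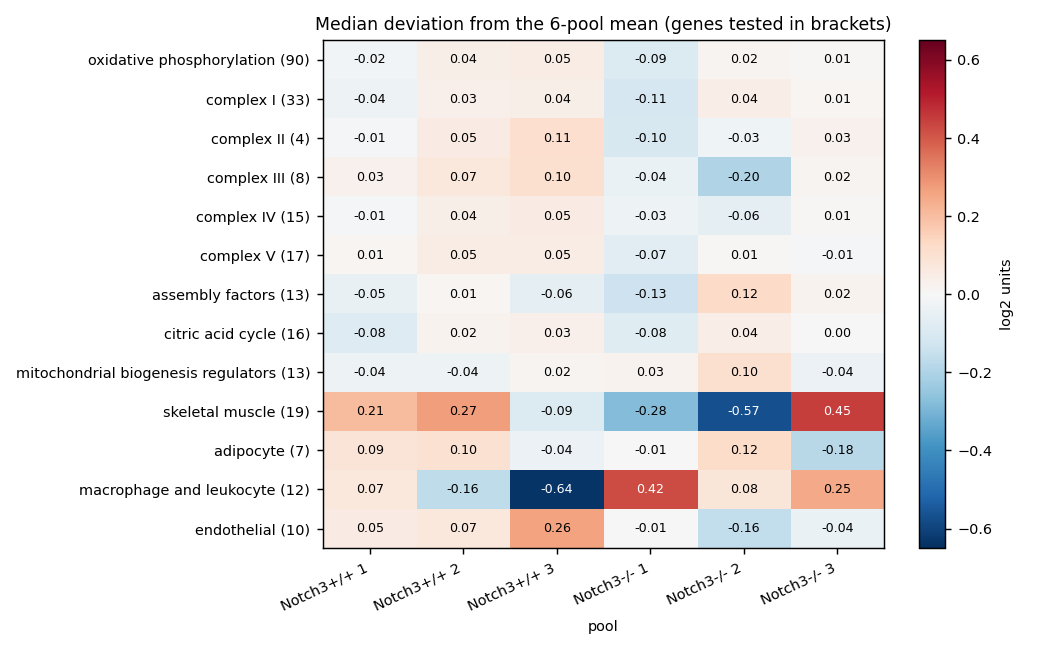
Median deviation from the 6-pool mean (log2 units, colour and printed value) of the oxidative phosphorylation genes, each complex and 6 other gene lists (rows, with the number of genes tested) in each pool (columns). The rows of the complexes and assembly factors stay between -0.195 and 0.125, whereas the skeletal muscle row runs from -0.57 to 0.45 and the macrophage and leukocyte row from -0.64 to 0.42.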

How the data were processed

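Expression was measured in 6 pools of caudal arteries on MOE430 2.0 arrays. For each probe set the authors deposited a log2 value from RMA (per the submitters' processing notes), which corrects background, equalises array quantiles and summarises probes. Its version is not given in the sources used here, and the log2 scale was read from the deposited values (1.38 to 13.38). RMA compresses differences of dim and of very bright probe sets. The number of arrays limits the precision.

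Of 45101 probe sets 64 controls were left out, and those with a mean below the 40th percentile (3.83) were not tested. Gene symbols came from the platform annotation. Genotypes were compared with limma 3.58.1 in R 4.3.3 (lmFit, eBayes, genotype as the only term), two-sided, adjusted by Benjamini-Hochberg over 27027 probe sets. The fit was tested on simulated data. Confidence intervals are limma's.

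The members and lists were chosen with earlier results of these data known. Genes named are the 4 with the smallest p and the 2 brightest of each complex, catalytic and core subunits, tissue forms and their partners, the 2 smallest p of each pathway list, and Ppargc1a, Nrf1, Tfam and Esrra. Others were chosen after their values were seen, or complete a count. Settings varied were the level filter, normalization, variance model, array weights, replicate block, probe sets averaged per gene and omission of each array. Choosing the probe set within 1 genotype was added after seeing the data. Replicates are labelled biological.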

Additional observations from a re-analysis of the deposited data

How the results depend on the processing

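The count of oxidative phosphorylation genes called was 0 in every setting run except array weights, where it was 1 (Ndufb6, on a fit that called 978 probe sets over the array against 68 without weights). Probe sets called over the array ranged from 13 to 62 when 1 array was left out, the lowest without Notch3+/+ replicate 2. The complex IV median was -0.042 when all probe sets of a gene were averaged and ran from -0.070 to 0.0033 when 1 array was left out; the cause was not tested. Directions changed for genes near 0. With quantile normalization applied again, Cox6b1 read -0.020 and Ndufa1 -0.041. With array weights, Cox6a2 read 0.028, Cox7a2l -0.0066 and Ndufa1 -0.045. With probe sets averaged, Cox6b1 read -0.022, Cox6c 0.068, Cox7a2l -0.057, Cox8c -0.047, Ndufc2 -0.028, Sdhd 0.135 and Uqcrb 0.13. With the probe set brightest in the Notch3+/+ pools, an alternative chosen after seeing the data, Ndufb6 read -0.037 and no other of the 92 genes had another probe set; with that brightest in the Notch3-/- pools, 0 had. When 1 array was left out, the ranges were -0.125 to 0.0050 for Cox4i1, -0.052 to 0.12 for Cox4i2, -0.15 to 0.067 for Cox6a2, -0.10 to 0.19 for Cox6b2, -0.048 to 0.15 for Cox7a2l, -0.077 to 0.12 for Cox8b, -0.013 to 0.11 for Cox8c, -0.018 to 0.035 for Ndufa1, -0.0017 to 0.053 for Cox6b1, -0.028 to 0.032 for Uqcrb, -0.013 to 0.18 for Ndufaf7, -0.038 to 0.19 for Ndufaf8 and -0.15 to 0.025 for Sdhc. With the replicate number as a block 57 probe sets and 0 oxidative phosphorylation genes were called; same-numbered pools correlated at 0.24, 0.05 and -0.07 in their deviations, and 2 of 6 pools correlated best with their own number, so the numbers were not taken to pair the pools. Dim probe sets, such as those of Cox4i2 and Cox8b, are compressed by RMA, which limits what they can show.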
